A study of Mus musculus with 18 samples.

Results

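Cytochrome P450 genes outside the Cyp4 and Cyp2c families and Cyp51 were examined in mouse ileum in which PPARα, a lipid-sensing nuclear receptor, was overexpressed in the epithelium. Members were the 63 protein-coding genes named Cyp with a number, except Cyp51 and names that start with Cyp4 or Cyp2c. They were chosen among 55487 genes counted and 21936 protein-coding genes. By its name Cyp46a1, a sterol P450, was left out too. The 24 members with more than 1 CPM (counts scaled to the library total) in at least 4 of 18 libraries are described gene by gene, and the other 39 are given at the end. The rule used expression in any library and no difference between genotypes. In all, 3 groups of 6 mice were compared, with 1 library of whole-thickness ileum per mouse: controls lacking Villin-CreERT2, and mice heterozygous or homozygous for the IEC-Ppara alleles. The study compared these genotypes to find what more PPARα in the epithelium does to transcription. All mice were littermates on the C57BL6/J background, 8 to 13 weeks old, fed chow, and given tamoxifen (100 mg/kg) on 3 consecutive days and collected 2 weeks later. IEC-Ppara mice carried 1 or both alleles of CAG-Ppara,-EGFP, a Ppara and EGFP cassette in the Col1a1 locus that Cre inverts, and Villin-CreERT2, a tamoxifen-activated Cre driven by the Villin promoter in intestinal epithelium. The controls received the same tamoxifen without Cre, so tamoxifen-activated Cre and the cassette's expression cannot be told apart in these groups. How many copies of the uninverted cassette the controls carried, if any, is not given in the sources used here. The labels gave 3 female and 3 male controls, and 2 females and 4 males in each IEC-Ppara group.

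P450 enzymes are haem proteins that insert an oxygen atom into lipophilic substrates, drawing electrons from NADPH through P450 oxidoreductase (Por) in the endoplasmic reticulum or through ferredoxin in mitochondria. Members of the CYP1, CYP2 and CYP3 families oxidise drugs, toxins and dietary chemicals, and in the small intestine they meet swallowed compounds before the liver does. Other members build or clear signalling lipids, namely bile acids, vitamin D, retinoic acid, steroid hormones and oxidised fatty acids. Transcription of the drug-oxidising genes is known to follow ligand-activated receptors, the aryl hydrocarbon receptor (AHR) for CYP1, the pregnane X receptor (PXR, gene Nr1i2) for CYP3A and the constitutive androstane receptor (CAR, gene Nr1i3) for CYP2B.

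The 18 libraries held 38528522 to 50376371 counts on genes. Ppara ranged from 25.8 to 47.4 CPM in controls, from 107 to 196 CPM in heterozygous and from 184 to 279 CPM in homozygous mice, with no overlap between controls and either IEC-Ppara group. Markers of the ileum and its epithelium were present in every library: the 6 distal intestine genes summed to between 3953 and 7827 CPM, against 71.8 to 117 CPM for the 6 proximal ones. The libraries also differed in tissue makeup. Control replicates 2 and 3, heterozygous replicate 2 and homozygous replicate 1 held 86.4 to 525 CPM of the 8 B cell markers, where the other libraries held 10.9 to 21.0 CPM. Smooth muscle markers summed to 434 CPM in control replicate 6 and 560 CPM in heterozygous replicate 3, against 2056 to 7836 CPM elsewhere, and adipocyte genes from 41.5 to 838 CPM. In whole tissue, fewer cells of a type and less RNA per cell cannot be told apart.

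Per length of transcript, a few genes made up most of the mRNA of these 24 P450 genes, a sum that leaves out Cyp4, Cyp2c and Cyp51. Levels between genes are compared here as FPKM, fragments scaled to gene length and library total, as a mean over the 18 libraries. Cyp2d26, a member of the drug-oxidising CYP2D cluster, stood first at 74.6 FPKM and Cyp3a13, a CYP3A enzyme found in gut, second at 62.8 FPKM. The order of this pair is not resolved: the control means were 71.9 ± 15.0 and 69.9 ± 13.6 FPKM (SD), and Cyp3a13 exceeded Cyp2d26 in 3 controls, 2 heterozygous and 0 homozygous libraries. Cyp3a25 followed at 31.98 FPKM. Then came Cyp2s1 (23.9 FPKM), a CYP2 enzyme of surface epithelia, Cyp2j6 (23.7 FPKM), an arachidonic acid epoxygenase, and Cyp27a1 (22.5 FPKM), a mitochondrial sterol hydroxylase. These 3 pooled means lay closer together than the SD of any of them within a genotype, so their pooled order is not resolved. In every control library Cyp2s1 exceeded both Cyp2j6 and Cyp27a1, with control means of 25.1, 20.2 and 22.8 FPKM. The homozygous means of Cyp2s1, Cyp2j6 and Cyp27a1 were 21.5, 25.3 and 21.6 FPKM. In both IEC-Ppara groups Cyp2j6 lay above Cyp2s1 in some libraries and below it in others. Cyp2d26 alone held 17.0% to 32.3% of the summed FPKM of the 24 genes in a library. The weakest of the 24 were Cyp2b10 (0.501 FPKM), Cyp2r1 (0.500 FPKM), Cyp2d40 (0.441 FPKM) and Cyp17a1 (0.332 FPKM).

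**Figure D1:**
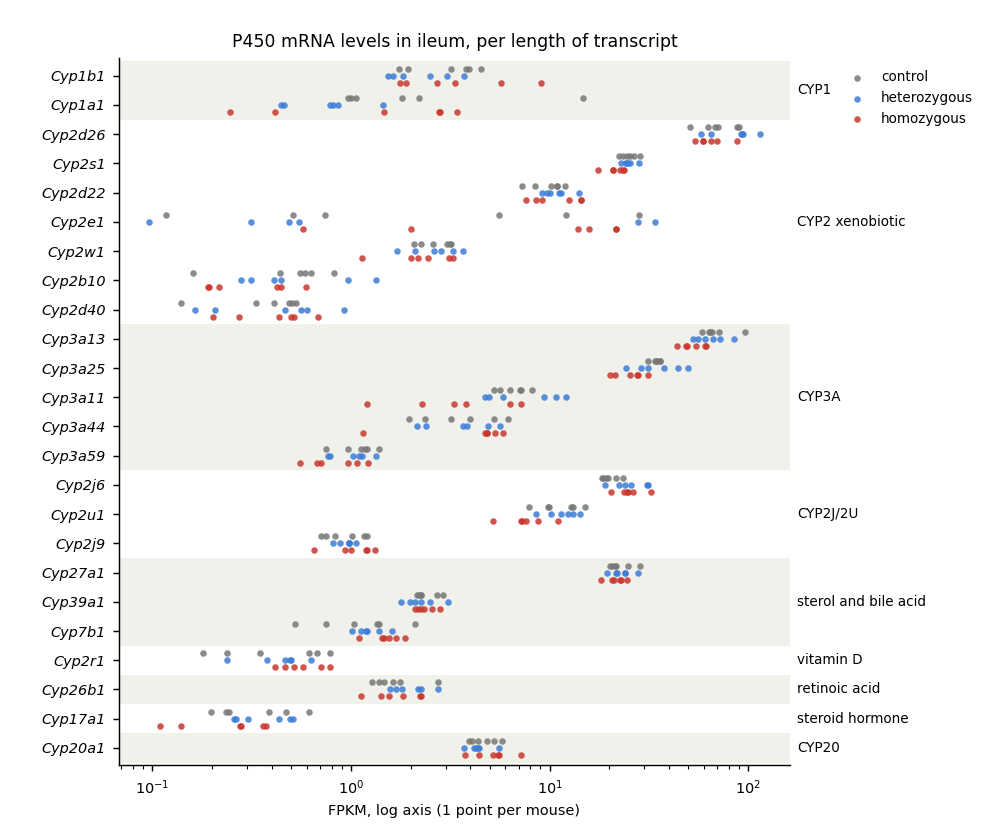
FPKM (log axis) of the 24 P450 genes, ordered by role, with 1 point per mouse in control, heterozygous and homozygous groups. Cyp2d26 and Cyp3a13 lie highest, and Cyp2e1 spreads over the widest range within each group.

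Added over the 24 genes, P450 mRNA in control mice came to 307 ± 14.8 FPKM, against 326 ± 36.3 FPKM in heterozygous and 275 ± 18.9 FPKM in homozygous ones (mean ± SD, n = 6 each). The heterozygous mice lay on both sides of the controls, and 1 homozygous library reached the control range. The 7 CYP2 xenobiotic genes carried 40.6% of the sum and the 5 CYP3A genes 35.0%. For CYP3A it came to 116 ± 11.3 FPKM in control, 114 ± 21.9 FPKM in heterozygous and 87.9 ± 10.5 FPKM in homozygous mice. Homozygous replicate 1, at 107 FPKM, was alone in reaching the control range, which began at 106 FPKM. These sums are given as levels, without a test.

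**Figure D2:**
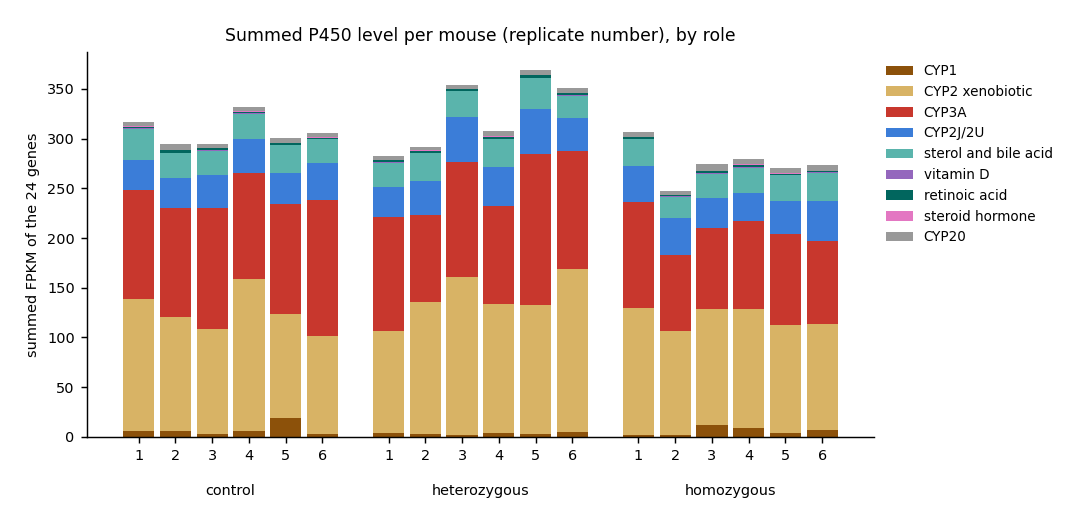
Summed FPKM of the 24 P450 genes in each mouse, stacked by role, for the 6 mice of each genotype. CYP2 xenobiotic and CYP3A genes fill most of every bar, and the homozygous bars span 247 to 306 FPKM against 294 to 332 FPKM in controls.

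No member differed between genotypes after adjustment. By edgeR's quasi-likelihood test over 14226 protein-coding genes, 0 of 24 members had an adjusted p under 0.05 in homozygous against control mice, where 0.366% of all tested genes did. DESeq2 and limma-voom also called 0 members. The study used p under 0.001 without adjustment as its threshold, by which the count was again 0 of 24, beside 0.647% of all genes. It applied that threshold to protein-coding genes with CPM over 3, against CPM over 1 here, so the gene sets differ. At an unadjusted p under 0.05, 1 member was higher and 5 were lower in homozygous mice, beside 4.14% and 4.36% of all genes. In heterozygous against control mice 0 of 24 passed the adjusted threshold (0.267% of all genes) and 0 the unadjusted 0.001 (0.492%), and at 0.05 there was 1 member higher (2.67%) and 1 lower (2.33%). In homozygous against heterozygous mice 0 of 24 passed adjustment (0% of all genes) and 0 the unadjusted 0.001 (0.148%), while at 0.05 there were 0 higher (3.86%) and 6 lower (3.9%), Cyp3a11, Cyp3a13, Cyp3a25, Cyp2u1, Cyp2s1 and Cyp2d26. The 3 comparisons share groups, so their counts are not independent. The median log2 difference of the 24 members was -0.05 in homozygous against control, 0.06 in heterozygous against control and -0.16 in homozygous against heterozygous mice, beside -0.0052, -0.0023 and -0.0042 over all genes.

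**Figure D3:**
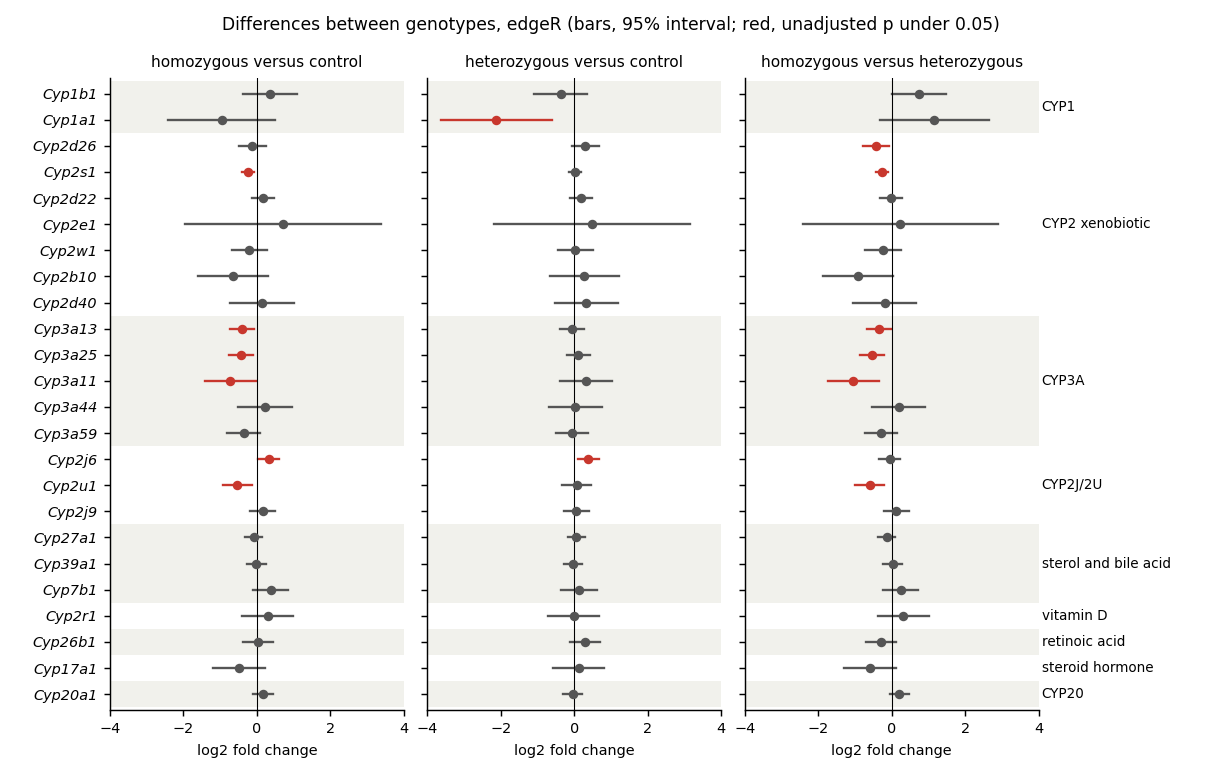
Log2 fold change of each P450 gene with its 95% interval from edgeR in the 3 genotype comparisons, in which red marks an unadjusted p under 0.05. In homozygous mice Cyp3a13, Cyp3a25, Cyp3a11, Cyp2u1 and Cyp2s1 lie left of 0 and Cyp2j6 right of it, and 0 of 24 genes passed adjustment.

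CYP3A, the group that oxidises the widest range of drugs and also bile acids, gave 3 of those 5 lower values at an unadjusted p under 0.05. Of its 9 genes 5 were above the limit. Cyp3a44, Cyp3a11, Cyp3a25 and Cyp3a59 lie in a cluster on chromosome 5 between 145773983 and 146113287 (GRCm38), and Cyp3a13 lies apart from them at 137892932 to 137921619 on the same chromosome. Cyp3a11 (ENSMUSG00000056035), a drug-oxidising enzyme and a known PXR target, had a lowest, median and highest CPM of 26.7, 34.3 and 41.6 in controls. The same values were 24.02, 38.8 and 61.9 CPM in heterozygous and 6.15, 18.2 and 36.4 CPM in homozygous mice. Homozygous replicates 2, 3, 5 and 6 lay below every control, replicates 1 and 4 lay inside the control range, and heterozygous mice fell on both sides of it. The log2 difference was -0.72 ± 0.33 (SE) for homozygous against control, with a 95% interval of -1.42 to -0.02 and an adjusted p of 0.578, and -1.04 ± 0.33 against heterozygous mice (adjusted p = 0.548, edgeR).

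Cyp3a25 (ENSMUSG00000029630), a neighbouring CYP3A gene, was the tightest of the group in controls, at 65.5, 72.2 and 74.7 CPM for the lowest, median and highest. Heterozygous mice spread from 50.5 through a median of 71.8 to 104 CPM. Homozygous mice lay at 41.8, 55.0 and 65.0 CPM. All 6 homozygous libraries were below all 6 controls, by a gap between 65.02 and 65.51 CPM, while the heterozygous mice overlapped with both groups. It was the only member of 24 whose homozygous and control ranges did not overlap, beside 0.773% of all tested genes. None of the 24 was separated in heterozygous against control mice (0.443% of all genes) or in homozygous against heterozygous mice (0.281%). The log2 difference of Cyp3a25 was -0.43 ± 0.15 (SE, 95% interval -0.76 to -0.11, unadjusted p = 0.0117, adjusted p = 0.437, edgeR) against controls and -0.54 ± 0.16 (adjusted p = 0.503) against heterozygous mice. With only the homozygous and control libraries in the fit, whose spread for this gene is smaller, the unadjusted p was 0.000341 and the adjusted p 0.0747.

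Cyp3a13 (ENSMUSG00000029727) had the highest CPM of the whole set. Its lowest, median and highest values were 173, 191 and 284 CPM in controls, 157, 187 and 252 CPM in heterozygous and 130, 153 and 182 CPM in homozygous mice. In homozygous mice 4 libraries lay below every control and none lay above the control median. With TMM scaling, 1 of these, homozygous replicate 6 (163 CPM), lay above the lowest control (162 CPM). The difference was -0.41 ± 0.16 on the log2 scale (95% interval -0.74 to -0.08, adjusted p = 0.481, edgeR). Without control replicate 6, the highest library and also the lowest in smooth muscle markers, it was -0.27. Cyp3a59 ranged from 1.11 to 2.78 CPM over all mice and had a log2 difference of -0.36 ± 0.21, and Cyp3a44 ranged from 2.27 to 12.1 CPM and had one of 0.22 ± 0.35 (homozygous against control, adjusted p = 0.671 and 0.907, edgeR). Markers of several cell types differed along with the CYP3A values, and of the lists named here 1 gene passed adjustment (edgeR). It was Fabp2, a fatty acid-binding protein of enterocytes, with control libraries at 1069 ± 145 CPM (SD, n = 6) and homozygous ones at 2049 ± 302 CPM (SD, n = 6) (log2 difference 0.93 ± 0.14, adjusted p = 0.00162). Of the 7 enterocyte markers 5 had positive homozygous against control differences (median 0.12, 2 of 7 higher at an unadjusted p under 0.05). The B cell markers differed most: all 8 had negative homozygous against control differences (median -3.11 on the log2 scale, 8 of 8 with an unadjusted p under 0.05), through 2 controls rich in them. Without the 4 B cell-rich libraries the difference was -0.91 for Cyp3a11, -0.48 for Cyp3a25 and -0.48 for Cyp3a13 (adjusted p = 0.813, 0.536 and 0.777, edgeR). The 4 Paneth cell markers also had negative differences (median -0.21, 1 of 4), and the 7 adipocyte genes positive ones (median 0.35, 1 of 7). The 8 smooth muscle markers all had positive homozygous against control differences (median 0.59 on the log2 scale, 0 of 8 with an unadjusted p under 0.05), as did the 7 fibroblast markers (median 0.36, 2 of 7). Of the 6 distal intestine markers 5 had negative ones (median -0.26, 2 of 6), and their sum was 3953 to 4314 CPM in homozygous replicates 3 to 6, 5620 and 6623 CPM in homozygous replicates 2 and 1, and 5016 to 7827 CPM in the other groups. With the smooth muscle mean as a covariate, chosen after the data were seen, the log2 difference was -0.66 for Cyp3a11, -0.38 for Cyp3a25 and -0.27 for Cyp3a13 (adjusted p = 0.84, 0.697 and 0.894, edgeR). The part of the distal, fibroblast and Paneth cell markers in the CYP3A values was not tested. CYP3A genes are close copies: 6.79% of the 100-base windows of Cyp3a25 and 7.39% of those of Cyp3a59 occur in the other. How the counting of uniquely aligned reads treated such stretches was not tested.

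Because several CYP3A genes gave lower values in homozygous mice and share a cluster, the promoters of Cyp3a11 and Cyp3a25 are shown, together with that of Cyp1a1, which varied most among the AHR targets. Each covers 250 bases before to 50 bases after the RefSeq start (GRCm38.p6), read 5′ to 3′ on the gene's strand. Capitals mark the nuclear receptor half-site AGGTCA on either strand in both CYP3A genes, and the AHR core GCGTG and the TATA box TATAAA in Cyp1a1. Cyp3a11 lies on the minus strand at chr5:145879805-145880104, Cyp3a25 on the minus strand at chr5:146009568-146009867 and Cyp1a1 on the plus strand at chr9:57697363-57697662.
Cyp3a11: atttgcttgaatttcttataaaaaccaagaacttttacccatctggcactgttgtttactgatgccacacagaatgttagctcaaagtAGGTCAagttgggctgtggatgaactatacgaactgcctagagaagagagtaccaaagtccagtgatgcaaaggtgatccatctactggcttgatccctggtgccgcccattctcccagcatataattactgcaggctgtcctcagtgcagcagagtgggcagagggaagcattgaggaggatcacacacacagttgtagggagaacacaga
Cyp3a25: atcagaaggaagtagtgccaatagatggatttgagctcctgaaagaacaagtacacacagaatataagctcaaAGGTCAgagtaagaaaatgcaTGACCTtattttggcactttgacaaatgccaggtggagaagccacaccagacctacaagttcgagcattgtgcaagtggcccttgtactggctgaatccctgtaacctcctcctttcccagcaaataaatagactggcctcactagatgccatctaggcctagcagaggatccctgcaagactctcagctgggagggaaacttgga
Cyp1a1: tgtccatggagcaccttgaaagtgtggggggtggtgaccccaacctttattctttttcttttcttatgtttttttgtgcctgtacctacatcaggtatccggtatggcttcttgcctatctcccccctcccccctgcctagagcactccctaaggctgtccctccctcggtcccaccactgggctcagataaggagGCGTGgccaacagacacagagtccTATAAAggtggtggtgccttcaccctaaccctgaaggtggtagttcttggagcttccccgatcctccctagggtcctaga

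Promoters were found by symbol for 19 of the 24 members. The half-site was present in 5 of the 19, Cyp3a11, Cyp3a25, Cyp3a44, Cyp3a59 and Cyp2d40, beside 16.3% of the 32851 promoters in the table. Members are counted here by gene and the shares by promoter, with 32851 promoters for 27025 symbols, so the units differ. All of these genes but Cyp2d40 are CYP3A genes, which are close copies. Cyp3a13 had no half-site in this window. Cyp3a44, which has it, had a homozygous against control log2 difference of 0.22 ± 0.35 (SE, adjusted p = 0.907, edgeR). In Cyp3a25 and Cyp3a59 the window held the half-site on both strands, beginning 177 and 156 bases before the start, and in Cyp3a11 it began 162 bases before it. A direct repeat of the half-site with 1 base between the copies, which overlaps with the single half-site by construction and is the form known for PPARα, was in none of the 19 and in 0.0396% of promoters, both strands searched. GCGTG was in 7 of the 19 (32.4% of promoters), beginning 54 bases before the start in Cyp1a1 and 76 bases in Cyp1b1, and TATAAA in 7 of the 19 (13.6%). These are letter matches, not measured binding sites.

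**Figure D4:**
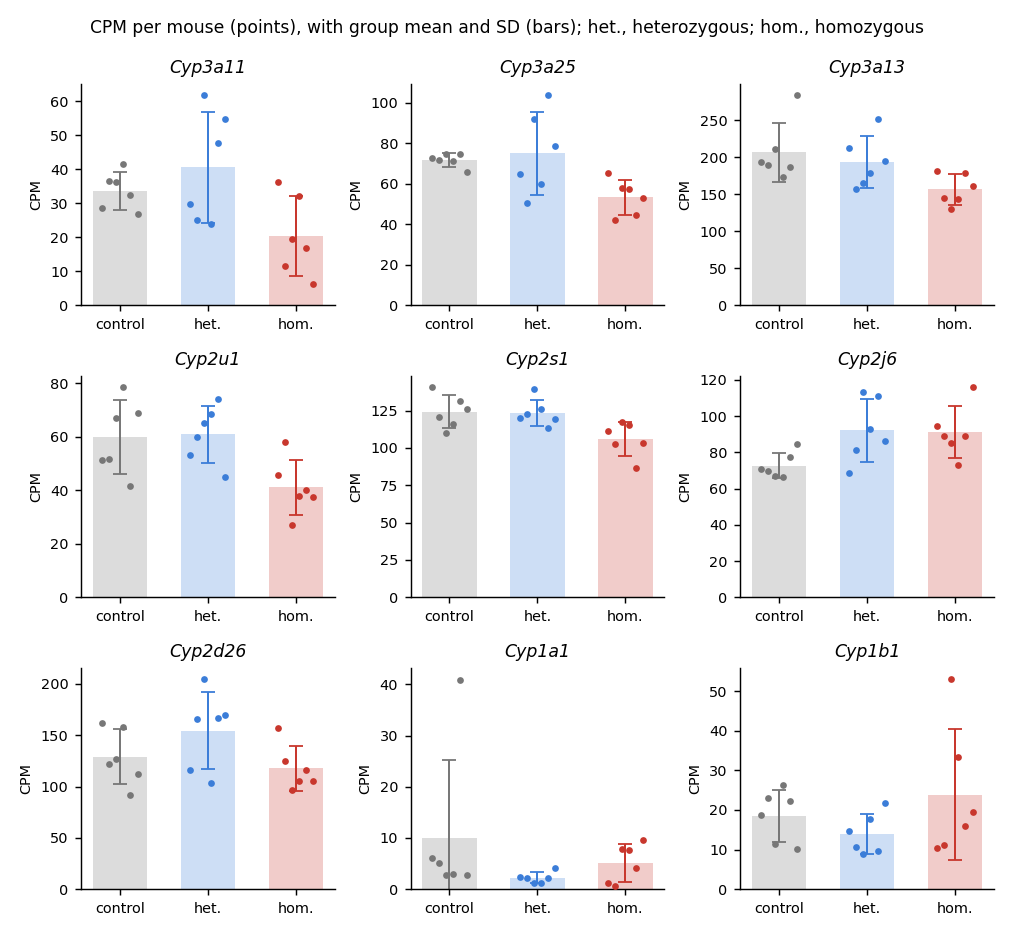
CPM per mouse (points) with the mean and SD of each genotype (bars) for 9 P450 genes, each on its own axis from 0. The 6 homozygous values of Cyp3a25 lie under all 6 controls, Cyp2j6 lies higher in most IEC-Ppara mice, and control replicate 5 stands alone at 40.9 CPM for Cyp1a1.

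The CYP2 xenobiotic group had 7 of its 24 genes above the limit, and 1 of the 7 was lower at an unadjusted p under 0.05 in homozygous against control mice, beside 4.36% of all tested genes. Cyp2d26 (ENSMUSG00000022445; chromosome 15, 82790101 to 82794294) was at 91.7, 125 and 162 CPM for the lowest, median and highest control, at 104, 166 and 205 CPM in heterozygous and at 96.7, 111 and 157 CPM in homozygous mice. The groups overlapped throughout, and the log2 difference was -0.13 ± 0.17 for homozygous and 0.30 ± 0.17 for heterozygous mice against controls (adjusted p = 0.888 and 1, edgeR). Against heterozygous mice the homozygous difference was -0.43 ± 0.17 (unadjusted p = 0.0235, adjusted p = 0.64, edgeR), and all 6 homozygous libraries lay below the heterozygous median. Cyp2s1 was the other gene of this group under 0.05 in that comparison, at -0.26 ± 0.08 (adjusted p = 0.511, edgeR). Cyp2s1 (ENSMUSG00000040703) varied least of the 24 genes between mice of a genotype, with an SD of 0.134 on the log2 scale where the median gene had 0.203. Its lowest, median and highest values were 110, 123 and 141 CPM in controls, 113, 121 and 139 CPM in heterozygous and 86.2, 107 and 117 CPM in homozygous mice. In homozygous mice 3 libraries lay below all controls and none above their median. The log2 difference was -0.23 ± 0.08 (95% interval -0.40 to -0.07, unadjusted p = 0.00735, adjusted p = 0.395, edgeR), the smallest p of the 24 genes in this comparison. An antisense lincRNA, Gm26707, shares 260 bases with Cyp2s1 and was at a mean of 0.0385 CPM. Cyp2s1 and Cyp3a25 were chosen for full values after these were seen.

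Cyp2b10 (ENSMUSG00000030483), the classical CAR target, was close to the limit in all groups. Its lowest, median and highest values were 0.337, 1.21 and 1.73 CPM in controls, 0.591, 0.902 and 2.81 CPM in heterozygous and 0.405, 0.678 and 1.26 CPM in homozygous mice. It was above 1 CPM in 4 controls, 2 heterozygous and 1 homozygous library, the ranges overlapped, and the log2 difference of -0.65 ± 0.46 (homozygous against control) had an adjusted p of 0.724 (edgeR). CAR itself, Nr1i3, stayed between 0.295 and 1.19 CPM. Of the other genes of this group, Cyp2d22 ranged from 28.3 to 56.5 CPM, Cyp2w1 from 1.72 to 5.59 CPM and Cyp2d40 from 0.253 to 1.67 CPM, and their adjusted p values in the genotype comparisons were 0.769 or more (edgeR). Cyp2d40 passed the limit through 3 heterozygous and 1 homozygous library and in no control.

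Cyp2e1 (ENSMUSG00000025479), which oxidises ethanol and ketone bodies and is known from liver and fat, varied more than any other member. Its values ran from 0.252 through a median of 6.79 to 60.9 CPM in controls, from 0.208 through 1.12 to 73.2 CPM in heterozygous and from 1.23 through 31.9 to 46.6 CPM in homozygous mice. Every group held at least 1 library near 1 CPM and at least 1 above 40 CPM. The SD within genotypes, 2.88 on the log2 scale, exceeded that of 99.9% of the genes tested. The log2 difference of 0.72 ± 1.27 (homozygous against control, 95% interval -1.95 to 3.39, adjusted p = 0.922, edgeR) therefore carries little precision. Without control replicate 4 it was 1.73, by limma-voom 1.59, with sex as a covariate 0.30 and with the smooth muscle covariate 0.056.

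The libraries with high Cyp2e1 were those with adipocyte mRNA. Adiponectin (Adipoq), a hormone of fat cells, was above 1 CPM in 10 libraries, 3 controls, 2 heterozygous and 5 homozygous mice, in which it reached 3.36 to 56.6 CPM. Cyp2e1 was 4.36 to 73.2 CPM in those 10. In the other 8, with Adipoq between 0 and 0.211 CPM, Cyp2e1 was 0.208 to 1.61 CPM. The 2 sets did not overlap. Alb, the defining hepatocyte gene, was at 12.9 CPM in control replicate 5 and at 2.00 CPM or less in the other 17 libraries. The mean of 7 adipocyte genes was used as a covariate, chosen after the data were seen. With it the log2 difference of Cyp2e1 was 0.29 for homozygous and -0.07 for heterozygous against control mice. Without it these were 0.72 and 0.49 (edgeR).

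**Figure D5:**
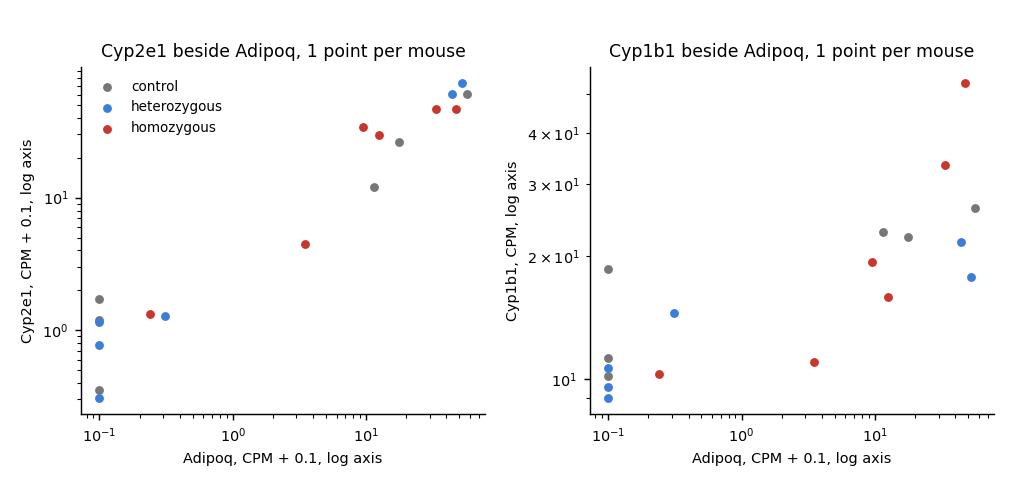
Cyp2e1 (left) and Cyp1b1 (right) against Adipoq, 1 point per mouse by genotype, on log axes (0.1 CPM added to Adipoq and Cyp2e1). The 10 libraries with Adipoq above 1 CPM hold Cyp2e1 at 4.36 to 73.2 CPM and the other 8 hold it at 0.208 to 1.61 CPM, with mice of all 3 genotypes in both sets.

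The CYP2J and CYP2U genes, which oxidise arachidonic acid and other long-chain fatty acids, had 3 of 9 members above the limit, with values on both sides of the controls. Cyp2j6 (ENSMUSG00000052914; chromosome 4, 96516138 to 96553661) was at 66.5, 70.2 and 84.6 CPM for the lowest, median and highest control. It was at 68.9, 89.7 and 113 CPM in heterozygous and 73.2, 89.0 and 116 CPM in homozygous mice. By these CPM values, 5 homozygous and 4 heterozygous libraries lay above every control. With the TMM scaling used in the test, the highest control, replicate 6, was at 90.3 CPM. Homozygous replicates 3 and 5 (80.2 and 88.8 CPM) and heterozygous replicate 6 (86.1 CPM) then lay below it. The log2 differences were 0.33 ± 0.14 and 0.38 ± 0.14 against controls (95% intervals 0.04 to 0.61 and 0.09 to 0.67, unadjusted p = 0.0285 and 0.0124, adjusted p = 0.549 and 0.724, edgeR), both measured against the same controls. Homozygous and heterozygous mice differed by -0.05 ± 0.14.

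Cyp2u1 (ENSMUSG00000027983; chromosome 3, 131288441 to 131303227), which hydroxylates fatty acids at the tail of the chain, was at 41.5, 59.6 and 78.8 CPM in controls, 44.9, 62.5 and 74.2 CPM in heterozygous and 27.2, 39.1 and 58.0 CPM in homozygous mice. Homozygous replicates 3 to 6 lay below all controls, and replicates 1 and 2 lay inside their range. The same 4 libraries had the lowest distal intestine sums, 3953 to 4314 CPM against 5016 CPM or more in the other 14, and the part of this in the Cyp2u1 values was not tested. The log2 difference was -0.54 ± 0.19 against controls (95% interval -0.93 to -0.14, adjusted p = 0.429) and -0.60 ± 0.19 against heterozygous mice (adjusted p = 0.531, edgeR). Without homozygous replicate 2 the latter was -0.74 with an unadjusted p of 0.000746. An antisense transcript, 4930534D22Rik, shares 10.5% of the length of Cyp2u1 and was at a mean of 0.652 CPM, and without a stated strand setting the reads of the overlap cannot be assigned. Cyp2j9 ranged from 2.17 to 4.43 CPM, with log2 differences of 0.16 and 0.05 in homozygous and heterozygous mice against controls.

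Of the CYP1 genes, which oxidise polycyclic aromatic compounds, Cyp1a1 and Cyp1b1 were above the limit. Cyp1a1 (ENSMUSG00000032315; chromosome 9, 57687928 to 57703824) was at 2.71, 4.01 and 40.9 CPM for the lowest, median and highest control, at 1.24, 2.22 and 4.06 CPM in heterozygous and at 0.689, 5.92 and 9.53 CPM in homozygous mice. Control replicate 5 stood apart, since the other 5 controls reached 6.15 CPM at most. The log2 difference was -2.12 ± 0.72 for heterozygous mice (95% interval -3.63 to -0.60, adjusted p = 0.646) and -0.96 ± 0.69 for homozygous mice (adjusted p = 0.73, edgeR), the largest of the 24 genes in each. Without control replicate 5 these were -0.78 and 0.38. That library was also the one with Alb at 12.9 CPM. The 4 listed hepatocyte genes summed to 20.0 CPM in it, most of it Alb, and to 8.17 CPM in control replicate 3, the next highest. The other genes of that list were not compared alone. The part of control replicate 5 in the result was not tested beyond leaving it out.

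Other genes of the AHR pathway did not pass adjustment. The receptor Ahr was at 15.9 ± 1.70, 16.1 ± 2.94 and 15.4 ± 0.804 CPM in controls, heterozygous and homozygous mice, and its targets Ahrr (AHR repressor), Tiparp and Nqo1 had log2 differences of -0.28, -0.11 and -0.10 in homozygous against control mice, with adjusted p values of 0.674, 0.810 and 0.865 (edgeR). Cyp1b1 (ENSMUSG00000024087), known from stromal cells, was at 10.2, 20.4 and 26.2 CPM in controls, 9.00, 12.6 and 21.6 CPM in heterozygous and 10.3, 17.7 and 53.1 CPM in homozygous mice. Homozygous replicates 3 and 4, at 53.1 and 33.4 CPM, lay above all controls and the other 4 inside their range. These same libraries had 4942 and 3909 CPM of fibroblast markers, against 1094 to 4173 CPM elsewhere. They had 409 and 354 CPM of macrophage and dendritic cell markers, against 144 to 308 CPM elsewhere. Smooth muscle markers summed to 7836 CPM in homozygous replicate 3, the highest of all libraries, and to 3883 CPM in homozygous replicate 4. Cyp1b1 was 11.0 to 53.1 CPM in the 10 libraries with Adipoq and 9.00 to 18.6 CPM in the 8 without. The log2 difference was 0.36 ± 0.35 (homozygous against control, adjusted p = 0.816, edgeR). It was -0.03 without homozygous replicate 3, and -0.027 and -0.0056 with the smooth muscle and adipocyte covariates, both chosen after the data were seen.

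The genes of sterol, vitamin, retinoid and steroid metabolism gave no unadjusted p under 0.05 between genotypes in the main edgeR fit. At least 1 alternative gave such a value for Cyp2r1 in homozygous against control mice. The same held for Cyp26b1 in heterozygous against control and in homozygous against heterozygous mice. Cyp27a1 (ENSMUSG00000026170), which starts the acidic pathway of bile acid synthesis, was at 43.7, 46.8 and 61.7 CPM in controls, 42.4, 49.8 and 60.5 CPM in heterozygous and 39.2, 47.4 and 53.1 CPM in homozygous mice. The ranges nearly coincided, and the 95% interval of the homozygous against control difference ran from -0.31 to 0.15 on the log2 scale (adjusted p = 0.887, edgeR). Cyp39a1, an oxysterol hydroxylase, had an interval of -0.27 to 0.23. Cyp7b1, another oxysterol hydroxylase, ranged from 1.13 to 4.54 CPM with a difference of 0.37 ± 0.23 (adjusted p = 0.684, edgeR). Cyp7a1 and Cyp8b1, the liver enzymes of the classical pathway, had medians of 0 and 0.123 CPM.

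Cyp26b1 (ENSMUSG00000063415), which clears retinoic acid, was at 6.83, 8.30 and 14.7 CPM in controls, 8.44, 10.7 and 14.6 CPM in heterozygous and 6.02, 9.09 and 12.1 CPM in homozygous mice, and its groups overlapped. The 95% interval of the homozygous against control difference was -0.39 to 0.43. Cyp2r1 (ENSMUSG00000030670), which hydroxylates vitamin D, was at 0.380, 1.02 and 1.66 CPM in controls, 0.503, 1.013 and 1.33 CPM in heterozygous and 0.878, 1.15 and 1.65 CPM in homozygous mice. Its interval was wider, -0.39 to 0.98. The vitamin D receptor, Vdr, was at 444 ± 35.9, 526 ± 62.8 and 472 ± 27.5 CPM in the 3 groups, with a log2 difference of 0.28 ± 0.08 in heterozygous mice (unadjusted p = 0.00352, adjusted p = 0.388, edgeR).

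Cyp17a1 (ENSMUSG00000003555), a steroid hydroxylase and lyase of adrenal and gonad, was at 0.549, 0.874 and 1.71 CPM in controls, 0.717, 1.03 and 1.41 CPM in heterozygous and 0.304, 0.770 and 1.04 CPM in homozygous mice. The ranges overlapped and the log2 difference was -0.48 ± 0.34 (homozygous against control, adjusted p = 0.721, edgeR), and -0.28 without control replicate 4. Of the 3 genes listed for adrenal steroid cells, Hsd3b1 and Nr5a1 were below 1 CPM in every library. The 3 together summed to 4.09 to 13.99 CPM, so the third was present in every library and made up most of the sum. Cyp20a1 (ENSMUSG00000049439), a P450 with no settled substrate, was at 8.98, 10.5 and 13.1 CPM in controls, 8.52, 9.86 and 12.8 CPM in heterozygous and 8.63, 12.2 and 16.4 CPM in homozygous mice, with a difference of 0.16 ± 0.13 (adjusted p = 0.747, edgeR), which was 0.060 without homozygous replicate 3.

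The electron partners and receptors of P450 enzymes are no members but share their pathway. Of 10 partner genes 9 were tested, and 0 passed adjustment in any genotype comparison. Por, the reductase on which all microsomal P450 enzymes depend, was at 199.9 ± 21.8 CPM in controls, 267 ± 54.2 CPM in heterozygous and 253 ± 23.8 CPM in homozygous mice. Its log2 differences were 0.46 ± 0.13 and 0.34 ± 0.13 against controls (unadjusted p = 0.00212 and 0.0157, adjusted p = 0.308 and 0.478, edgeR). Cyb5a, cytochrome b5, had one of -0.11 ± 0.09 in homozygous mice. Of 12 receptors and regulators 11 were tested, and 0 passed adjustment. PXR (Nr1i2) was at 108 ± 6.59, 123 ± 6.57 and 109 ± 12.9 CPM in controls, heterozygous and homozygous mice. Among 5 tested genes outside the P450 family that are known targets of these receptors, Abcc2, an export pump for conjugates, had a log2 difference of -0.65 ± 0.21 (unadjusted p = 0.00604, adjusted p = 0.359) and S100g, a calcium-binding protein under vitamin D control, one of -1.08 ± 0.42 (adjusted p = 0.505) in homozygous against control mice (edgeR).

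P450 genes are known for sex differences in mouse liver, and the sexes were compared here with genotype as a covariate, a comparison the study did not make. Of the 24 members 0 passed adjustment, beside 0.0492% of all genes. At an unadjusted p under 0.05, 0 members were higher in females (1.86% of all genes) and 3 were lower (1.71%). They were Cyp26b1 at -0.43 ± 0.14, Cyp3a25 at -0.32 ± 0.11 and Cyp2b10 at -0.91 ± 0.36 on the log2 scale, each with an adjusted p of 0.999 (edgeR, 7 females and 11 males). With sex as a covariate the Cyp3a25 difference between homozygous and heterozygous mice had an unadjusted p of 0.000805 and an adjusted p of 0.521.

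Some members varied together from mouse to mouse. After the genotype means were subtracted, 276 pairs of the 24 genes were correlated over the 18 libraries. Of these, 3 had an adjusted p under 0.05 by Pearson's r, 2 by Spearman's rho and 2 by both. Cyp2d26 and Cyp2d40, both of the CYP2D cluster on chromosome 15, had a Pearson r of 0.856 (permutation p = 0.00018, adjusted p = 0.0166) and a Spearman rho of 0.746 (permutation p = 0.00173, adjusted p = 0.159). Within controls, heterozygous and homozygous mice r was 0.755, 0.964 and 0.756, and 0.785 once the 2 most extreme libraries for Cyp2d26 were left out. No stretch of 100 bases of Cyp2d40 was found in another gene. Cyp1a1 and Cyp2u1 ran against each other, with r = -0.791 (permutation p = 0.00011, adjusted p = 0.0152) and rho = -0.754 (permutation p = 0.00028, adjusted p = 0.0386). Their r was -0.883, -0.613 and -0.808 within the 3 genotypes and -0.677 once the 2 most extreme for Cyp1a1 were left out. The third pair under an adjusted p of 0.05 was Cyp1b1 and Cyp2e1. Its libraries fell into 2 separate sets by Adipoq, a split chosen after the data were seen, so no pooled r is given. Within each set r stands without genotype means subtracted and with permutation across genotypes, so genotype differences can enter r. It was 0.511 over the 10 libraries with Adipoq (permutation p = 0.109, adjusted over both sets 0.130) with a rho of 0.248 (permutation p = 0.496, adjusted 0.496), and 0.0996 with the 2 most extreme for Cyp2e1 left out. Over the other 8 it was 0.502 (exact permutation p = 0.130, adjusted 0.130) with a rho of 0.405 (exact permutation p = 0.327, adjusted 0.496), and 0.823 with the 2 most extreme left out. A relation within the sets was not shown.

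The remaining 39 members did not pass the limit. Cyp2b19, Cyp2b23 and Cyp2g1 had no count in any library, which at 3 counts allows up to 0.0779 CPM in the shallowest one, and 10 of the 39 had a count in all 18 libraries. The median was under 0.1 CPM for 25 of them. The highest were Cyp2d10 with a median of 0.701 CPM, Cyp2t4 with 0.651 CPM and Cyp2d12 with 0.615 CPM. Cyp2t4, Cyp2f2 and Cyp27b1, which activates vitamin D, passed 1 CPM in 2, 2 and 1 libraries. Cyp1a2, the liver partner of Cyp1a1, was highest in control replicate 5 at 0.338 CPM, the library that also led for Cyp1a1. Cyp24a1, which clears vitamin D, had 4 counts over all libraries, and Cyp19a1, the aromatase, had 1. All 63 members added to 887 ± 33.6 CPM in controls, 929 ± 92.7 CPM in heterozygous and 792 ± 53.2 CPM in homozygous mice, beside 882 ± 33.5, 924 ± 93.01 and 786 ± 52.8 CPM for the 24 alone.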

How the data were processed

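Polyadenylated RNA from whole ileum was sequenced from 18 mice, 1 library each. The authors aligned reads with STAR (version 2.7.9a) to GRCm38, Ensembl annotation, and counted uniquely aligned reads per gene with featureCounts (version 2.0.3), and the strand setting is not given in the sources used here. The deposited counts are raw. The deposited CPM values are counts over the library total, and FPKM, which the authors also deposited, was computed again from CPM and gene length. Protein-coding genes with CPM over 1 in at least 4 libraries (14226) were tested with edgeR (version 4.0.16), TMM scaling and the quasi-likelihood test over all 18 libraries, with Benjamini-Hochberg adjustment over all of them. Replicates were separate mice, without technical repeats. Named genes were members under an adjusted p of 0.05 or an unadjusted p of 0.001, the 5 with the largest homozygous against control difference, and the highest FPKM of each role. Role groups, marker lists and the members themselves were chosen with earlier results of these data known. DESeq2 (version 1.42.0), limma-voom (limma version 3.58.1), other scalings, filters and covariates, and fits leaving out 1 library were the alternatives. Correlations over all pairs used 100000 permutations within genotypes. Those within the 2 Adipoq sets were permuted across genotypes, without genotype means subtracted. The tests were checked on simulated data. The 95% intervals come from edgeR and include the spread between mice, and the limit from 3 counts covers counting error only.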

Additional observations from a re-analysis of the deposited data

Results flagged for a closer look

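In 4 of 72 groups of 6 mice, 1 library lay far from the other 5 by Dixon's criterion at the 95% level. Chance alone does this in about 1 in 20 groups. Cyp1a1 was 40.9 CPM in control replicate 5, with the next control at 6.15 CPM. Cyp26b1 was 14.7 CPM in control replicate 2, with the next control at 9.45 CPM. Cyp3a13 was 284 CPM in control replicate 6, with the next control at 212 CPM. Cyp3a44 was 2.27 CPM in homozygous replicate 6, with the nearest homozygous library at 9.26 CPM.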

How the results depend on the processing

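No alternative gave a member an adjusted p under 0.05. Genes called in homozygous against control mice numbered 52, and 139 by DESeq2 and 31 without the 4 libraries rich in B cell markers, an alternative chosen after seeing the data. In heterozygous against control mice they numbered 38, and 79 by DESeq2, 24 with only these groups fitted, 23 with the replicate block and 20 without the B cell-rich libraries. In homozygous against heterozygous mice they numbered 0, and 9 by DESeq2, 1 with library size only and 0 to 1 when leaving out 1 library. Between the sexes they numbered 7, and 13 over all biotypes. Members under an unadjusted p of 0.001 numbered 1 in place of 0 with only the homozygous and control groups fitted. In homozygous against heterozygous mice this count was 1 in place of 0 by DESeq2, with sex as a covariate and without the B cell-rich libraries, and 0 to 1 when leaving out 1 library. The member was Cyp3a25, also without heterozygous replicate 2 (unadjusted p = 0.00021), and Cyp2u1 without homozygous replicate 2. Members under 0.05 in heterozygous against control mice numbered 1 by limma-voom and 1 to 3 when leaving out 1 library, and between the sexes 3 to 6.

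Single genes were followed for the 16 named members. The differences below changed sign, and the cause was not tested. In homozygous against control mice Cyp1b1 was -0.0056 with the adipocyte and -0.027 with the smooth muscle covariate, both chosen after seeing the data, and Cyp26b1 was -0.022 and -0.11 with these and -0.065 with sex. In heterozygous against control mice Cyp2e1 was -0.77 by limma-voom, -0.19 with sex, -0.61 with the replicate block and -0.070 with the adipocyte covariate. Cyp2s1 was -0.0080 with library size only, and without the B cell-rich libraries Cyp2s1 was -0.0095, Cyp2r1 0.59 and Cyp17a1 -0.029. Cyp2r1 was 0.10 by limma-voom and 0.098 with the replicate block. In homozygous against heterozygous mice Cyp2e1 was -1.01 with the smooth muscle covariate, and Cyp2j6 was 0.013 with the adipocyte and 0.10 with the smooth muscle covariate. Between the sexes Cyp2e1 was 0.0030 and Cyp3a13 -0.0028 with the adipocyte covariate, and Cyp2r1 was 0.33 without the B cell-rich libraries.

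Leaving out 1 library changed the sign for these members. In homozygous against control mice the range was -1.25 to 0.38 for Cyp1a1 (positive without control replicate 5), -0.033 to 0.51 for Cyp1b1 (negative without homozygous replicate 3) and -0.059 to 0.20 for Cyp26b1. In heterozygous against control mice it was -0.35 to 1.51 for Cyp2e1, -0.15 to 0.44 for Cyp2b10, -0.013 to 0.070 for Cyp2s1, -0.029 to 0.15 for Cyp2u1, -0.18 to 0.081 for Cyp3a13, -0.037 to 0.21 for Cyp3a25, -0.032 to 0.13 for Cyp27a1, -0.19 to 0.20 for Cyp2r1, -0.0092 to 0.33 for Cyp17a1 and -0.11 to 0.015 for Cyp20a1. In homozygous against heterozygous mice it was -0.032 to 1.07 for Cyp2e1 and -0.14 to 0.034 for Cyp2j6. Between the sexes it was -0.076 to 0.015 for Cyp2s1, -0.040 to 0.14 for Cyp3a13 and -0.073 to 0.032 for Cyp27a1. Replicate numbers did not pair the mice: deviations correlated from -0.543 to 0.612, over 0.1 in 9 of 18 pairs, and 2 of 18 libraries correlated best with their own number. With the replicate block, 0 members passed adjustment. The homozygous against control differences of Cyp27a1, Cyp2d26, Cyp2r1, Cyp2e1, Cyp17a1, Cyp20a1 and Cyp3a13 kept their sign under the alternatives run but moved by over 1.5 times under at least 1 of them. When leaving out 1 library the range was -0.22 to -0.044 for Cyp2d26, -0.12 to -0.0033 for Cyp27a1 and 0.12 to 0.52 for Cyp2r1. Under the other alternatives Cyp2r1 reached 0.77. In heterozygous against control mice Cyp26b1 was 0.30 in the main fit and reached 0.54.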
